A study of Mus musculus with 16 samples.

Results

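The genes described here are transcription factors, nearly all of the homeobox and paired-box classes, that set regional identity in the embryonic brain and body: the Hox, Lhx, Dlx, Irx, Nkx, Pax, Otx, Pou, Meis, Barhl and Emx families, the relatives of Six3, and Otp and Sim1. Members were taken by gene symbol alone, with no measured value used. The symbols matched 126 probes for 102 genes, of 25697 probes and 16593 named genes on the array, and each gene was read from its brightest probe. The match also took in Pou2af1, a lymphocyte coactivator of POU proteins, and Dlx1as, an antisense RNA of the Dlx1 locus, neither of which is a homeobox gene, and Sim1 encodes a factor of the bHLH-PAS class. Barhl2 and Pou1f1 each had 0 probes.

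RNA came from the hypothalamus of male mice on a mixed strain background and was hybridised to Illumina bead arrays. Agouti-related peptide (AgRP) is a feeding-promoting peptide of arcuate neurons. The 4 groups, each of 4 arrays, were AgRP+/- mice fed ad libitum, AgRP+/- mice fasted for 30 h, AgRP-/- mice fed ad libitum and AgRP-/- mice fasted for 30 h, so every group carried at least 1 altered Agrp allele and no AgRP+/+ group was analysed here. The labels do not state the animals' age, how the allele was made or whether arrays came from different animals. The p-values therefore reflect only array-to-array spread, part of which may be technical. With 0 probes named Agrp, the genotype labels were not checked by gene name.

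Homeodomain proteins bind short DNA elements built on a TAAT core, and combinations of them mark out territories of the neural tube. Nkx2-1, Otp, Sim1 and Six3 specify the hypothalamus, Dlx1, Dlx2, Lhx6 and Lhx8 the GABA and cholinergic neurons of the basal forebrain, Emx2 and Pax6 the dorsal telencephalon, Otx2, Irx genes, Pou4f1 and Barhl1 parts of the diencephalon and midbrain, and Hox genes the hindbrain and spinal cord. Many stay on in the adult neurons that they once specified, so their transcripts can bear on which tissue a dissection contains. In bulk RNA, fewer cells of a type and less RNA per cell cannot be told apart.

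The promoters of the 4 members whose level changed with fasting are shown because the results below turn on these genes. Each window runs from 250 bases before to 50 bases after the annotated start, 300 bases in all, taken from RefSeq on build GRCm38.p6 and read 5′ to 3′ on the gene's strand. Capitals mark the homeodomain core TAAT (either strand) and the E-box CACGTG. The windows lie at chr3:154330511-154330810 (minus strand, Lhx8), chr2:71529195-71529494 (plus strand, Dlx1), chr2:71546705-71547004 (minus strand, Dlx2) and chr15:103034145-103034444 (plus strand, Hoxc4).
Lhx8: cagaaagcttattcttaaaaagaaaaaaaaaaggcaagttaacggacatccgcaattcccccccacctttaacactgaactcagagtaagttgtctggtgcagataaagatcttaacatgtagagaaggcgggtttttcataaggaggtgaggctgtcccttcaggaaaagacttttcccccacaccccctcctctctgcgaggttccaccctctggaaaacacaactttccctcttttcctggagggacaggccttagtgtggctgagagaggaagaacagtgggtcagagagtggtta
Dlx1: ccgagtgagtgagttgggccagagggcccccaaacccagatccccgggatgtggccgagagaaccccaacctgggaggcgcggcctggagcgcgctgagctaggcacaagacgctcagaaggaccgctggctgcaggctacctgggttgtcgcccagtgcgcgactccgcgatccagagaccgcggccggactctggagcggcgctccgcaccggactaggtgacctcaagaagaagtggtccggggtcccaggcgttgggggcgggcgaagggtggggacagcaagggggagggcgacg
Dlx2: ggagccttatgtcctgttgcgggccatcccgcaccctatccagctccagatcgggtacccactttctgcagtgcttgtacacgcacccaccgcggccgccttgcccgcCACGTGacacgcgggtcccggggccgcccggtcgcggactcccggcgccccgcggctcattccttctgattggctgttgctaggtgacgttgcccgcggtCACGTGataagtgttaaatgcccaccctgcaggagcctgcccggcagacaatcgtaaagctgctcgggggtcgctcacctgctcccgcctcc
Hoxc4: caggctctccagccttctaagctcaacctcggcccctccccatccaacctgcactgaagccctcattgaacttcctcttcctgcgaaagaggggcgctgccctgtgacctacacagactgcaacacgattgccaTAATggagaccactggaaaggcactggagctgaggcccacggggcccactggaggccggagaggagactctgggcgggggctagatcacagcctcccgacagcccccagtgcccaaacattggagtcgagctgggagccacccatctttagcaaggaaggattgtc
The Hoxc4 window held 1 TAAT and the other 3 windows held 0. The longer element TAATTA, which contains TAAT on both strands, was in 0 of the 4. CACGTG, which reads the same on both strands, occurred 2 times in the Dlx2 window and 0 times in the others. TAAT was in 58.0% of the 32851 RefSeq windows of this length, TAATTA in 5.29% and CACGTG in 7.15%, against 61.6%, 6.98% and 9.30% of the 86 windows of member genes, which covered 71 of the 102 symbols. The windows of Dlx1, Dlx2 and Hoxc4 were rich in G and C (69.3%, 66.3% and 60.3% of bases), whereas that of Lhx8 was at 47%, below the median of all windows, 52.7%. Dlx1 and Dlx2 are neighbours on chromosome 2, where Dlx1as also lies.

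Most of these genes were dim in the hypothalamus. Of the 102 genes, 79 had a mean log2 intensity below the median of the whole table, 5.125, and 23 were at or above it. A probe entered the tests when it exceeded this median on at least 4 of the 16 arrays, and 29 member genes did (28.4%), against 57.4% of all 16593 genes. Of the 73 that did not, 64 exceeded the median on 0 arrays, and 38 had a mean under the lower quartile of the table, 4.49. Irx6, at 4.88, had the highest mean of the genes left out, and Pou5f1, at 5.003, had the lowest of those kept. Without detection calls a value below the median was not separated from background, and intensities of different probes are not compared as transcript levels.

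**Figure D1:**
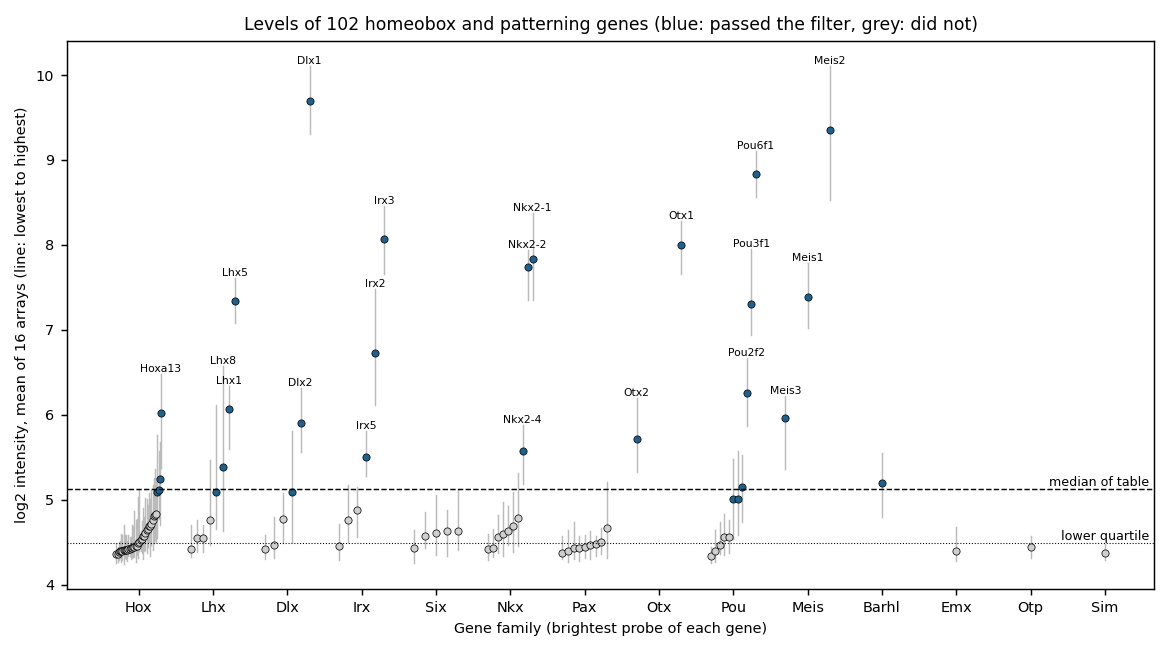
Mean log2 intensity over 16 arrays of the brightest probe of each of 102 genes, by family, with lines from the lowest to the highest array; blue points passed the filter, grey points did not, the dashed line is the table median and the dotted line its lower quartile. The points of Otp, Sim1, Emx2 and all Pax genes lie below the median, and 34 of the 38 Hox points are grey.

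Factors of the hypothalamus itself divided into readable and unreadable probes. Nkx2-1, which is required to form the ventral hypothalamus, averaged 7.83, and its relatives Nkx2-2 and Nkx2-4 averaged 7.74 and 5.57. Lhx5 and Lhx1, LIM-homeodomain factors of the mammillary and suprachiasmatic regions, averaged 7.33 and 6.07. Otp (4.45) and Sim1 (4.38), both needed for neuroendocrine neurons of the paraventricular nucleus, were at the bottom of the scale, as were Six3 (4.60) and Six6 (4.58) of the anterior hypothalamus and eye field. Pou3f2, a factor of corticotropin-releasing hormone, oxytocin and vasopressin neurons, averaged 5.01 and exceeded the median on 4 arrays. Of 14 measured hypothalamic markers 11 passed the filter, among them Pmch (13.78), Oxt (12.93), Avp (12.42) and Hcrt (12.17), all far above the median as the tissue label has it, while Crh, Rax and Nr5a1 did not pass the filter. The dim Otp and Sim1 probes stood beside bright readings of Oxt and Avp, hormones of the neurons that these factors specify.

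Factors named above for other territories also gave readings, which alone do not show the tissue that the RNA came from. The 5 brightest probes of the 102 genes were those of Dlx1 (9.69), Meis2 (9.36), Pou6f1 (8.83), Irx3 (8.06) and Otx1 (7.997). Meis2 and its relatives Meis1 (7.39) and Meis3 (5.96) encode partners of Pbx and Hox proteins. Dlx2, which acts with Dlx1 in GABA neurons, averaged 5.90, and Lhx8, a factor of basal forebrain cholinergic neurons, averaged 5.38, but Lhx6, a factor of migrating interneurons, was at 4.55. Emx2 (4.40), Lhx2 (4.54) and Pax6 (4.43) of the dorsal telencephalon were near the lower quartile, while Otx1, which is also expressed in deep cortical layers, was bright. Of the factors of thalamus, habenula and midbrain, Irx3, Irx2 (6.73), Otx2 (5.71), Irx5 (5.50) and Barhl1 (5.20) passed the filter, whereas Lhx9 (4.76) and Pou4f1 (4.47), which mark thalamic and habenular neurons, did not. Of 38 Hox genes, 4 passed, namely Hoxa13 (6.03), Hoxc4 (5.24), Hoxd11 (5.12) and Hoxc10 (5.09), and 0 of 6 measured hindbrain markers did. Lhx3, a factor of the developing pituitary and of motor neurons, averaged 5.09.

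The 79 genes with a mean below the table median are these. They include all 9 Pax genes, from Pax7 (4.38) to Pax1 (4.67), the relatives Six2, Six3, Six4, Six5 and Six6 (4.43 to 4.63), and Emx2, Otp and Sim1. In the Nkx family they are Nkx1-2, Nkx2-3, Nkx2-5, Nkx2-6, Nkx2-9, Nkx3-2 and Nkx6-1 (4.42 to 4.78), in the Lhx family Lhx2, Lhx3, Lhx4, Lhx6 and Lhx9, in the Irx family Irx1, Irx4 and Irx6 (4.45 to 4.88) and in the Dlx family Dlx3, Dlx4, Dlx5 and Dlx1as. In the Pou family they are Pou2af1, Pou2f3, Pou3f2, Pou3f4, Pou4f1, Pou4f3 and Pou5f1. The other 36 are Hox genes, that is all 38 except Hoxa13 and Hoxc4, and their 34 members left out of the tests ran from Hoxb7 and Hoxc9 (4.36) to Hoxb2 and Hoxb3 (4.83). Hoxd11, Hoxc10, Lhx3, Dlx3, Pou3f2 and Pou5f1 were below the median on average but passed the filter.

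A second probe did not always give the same reading. Of the 21 genes with several probes, 4 had probes that differed by more than 1 on the log2 scale. The probes of Nkx2-1 averaged 7.83 and 4.63, those of Nkx2-2 averaged 7.74 and 5.38, those of Irx2 averaged 6.73 and 4.48, and those of Hoxa13 averaged 6.03, 4.60 and 4.56. The posterior Hox signal of Hoxa13 thus rests on 1 of its 3 probes. Lhx8, Dlx1, Dlx2, Hoxc4 and Otx2 each had 1 probe.

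The first question of the design is which genes respond to a 30 h fast. Averaged over both genotypes, fasting lowered 4 of the 29 tested members, Lhx8, Hoxc4, Dlx2 and Dlx1, and raised 0 (limma, Benjamini-Hochberg adjusted p under 0.05 over 13662 probes). This is 13.8% of the members, against 4.19% of all tested probes called in either direction and 1.95% called lower. Lhx8 exceeded the table median on 4 AgRP+/- and 3 AgRP-/- fed arrays, but on 2 and 1 fasted arrays. Hoxc4 exceeded it on 4 and 4 fed arrays, and on 2 and 0 fasted arrays. The fasted arrays alone would have admitted neither gene, so the filter favoured the fall of both. The share of 13.8% rests partly on these 2 genes and is not read as a result about the members. When all probes were fitted without the filter, 2 of the 102 genes were called, Lhx8 and Hoxc4, beside 413 of all 25697 probes. Dlx2 and Dlx1 were not called in that fit. Of the 29, 20 had a change below 0, and the median change of the 29 was -0.10, against -0.0014 and 50.4% below 0 over all tested probes. Several of those below 0, among them Lhx8, Hoxc4, Hoxc10, Dlx3 and Pou5f1, exceeded the table median mostly on fed arrays. Their direction is tied to how they passed the filter, so this count is not read as a result about the members. All 3 tested genes of the list of basal forebrain and GABA neuron factors, Lhx8, Dlx2 and Dlx1, were among the 4. Of 6 tested hypothalamic and preoptic factors 0 were called (median -0.089), and of 5 tested factors of thalamus, habenula and midbrain 0 were called, with 4 above 0 (median 0.25).

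Lhx8 showed the largest fall. In AgRP+/- mice it read 6.06, 5.96, 5.63 and 6.58 when fed and 4.79, 4.82, 5.13 and 5.40 when fasted. In AgRP-/- mice it read 5.57, 5.47, 5.11 and 5.69 when fed and 5.26, 5.02, 4.63 and 4.995 when fasted. Every fed AgRP+/- array lay above every fasted one, whereas in AgRP-/- mice a single fasted array, replicate 1, reached above the lowest fed one. The group means were 6.06 ± 0.39 and 5.04 ± 0.29 in AgRP+/- mice and 5.46 ± 0.25 and 4.97 ± 0.26 in AgRP-/- mice (SD, n = 4). The averaged log2 difference of Lhx8 was -0.75, a 1.69-fold fall (SE 0.14, limma adjusted p = 0.00471). Both fasted means lie below the table median, where a floor can limit the measured fall.

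Dlx1 and Dlx2 fell by less, and by similar amounts in both genotypes. Dlx2 read 5.94, 6.25, 5.90 and 6.11 in fed and 5.61, 5.65, 5.57 and 5.96 in fasted AgRP+/- mice. It read 6.19, 6.06, 5.99 and 6.31 in fed and 5.83, 5.63, 5.80 and 5.68 in fasted AgRP-/- mice. In AgRP-/- mice the fed and fasted arrays did not overlap, and in AgRP+/- mice fasted replicate 4 lay among the fed arrays. The averaged change of Dlx2 was -0.38 (SE 0.091, limma adjusted p = 0.0249), with -0.35 in AgRP+/- and -0.40 in AgRP-/- mice, neither of which passed alone (adjusted p = 0.284 and 0.179).

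Dlx1 read 9.92, 10.10, 10.04 and 9.69 in fed and 9.65, 9.52, 9.79 and 9.74 in fasted AgRP+/- mice. It read 9.75, 9.81, 9.42 and 9.86 in fed and 9.30, 9.50, 9.52 and 9.41 in fasted AgRP-/- mice. The ranges of fed and fasted arrays overlapped in both genotypes. The averaged change of Dlx1 was -0.27 (SE 0.072, limma adjusted p = 0.0397), and it was -0.27 in AgRP+/- and -0.28 in AgRP-/- mice (adjusted p = 0.310 and 0.252). The Dlx1 call is the least firm of the 4, since it was lost in 12 of the 16 fits that left out 1 array (-0.28 to -0.24, adjusted p 0.0515 to 0.0885). The Dlx2 call was lost without AgRP+/- fasted replicate 2 or AgRP-/- fasted replicate 2 (adjusted p = 0.0541 and 0.0503).

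Hoxc4, an anterior gene of the HoxC cluster that is active in hindbrain and spinal cord, decreased by 0.45 on average (SE 0.096, limma adjusted p = 0.0126). It read 5.37, 5.40, 5.56 and 5.29 in fed and 5.32, 5.01, 5.43 and 5.01 in fasted AgRP+/- mice. It read 5.43, 5.45, 5.68 and 5.51 in fed and 4.85, 4.82, 4.70 and 4.99 in fasted AgRP-/- mice. The groups were apart in AgRP-/- mice and overlapped in AgRP+/- mice. These readings span the table median, and the neighbouring Hoxc5 (4.41) and Hoxc6 (4.39) were below the lower quartile.

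**Figure D2:**
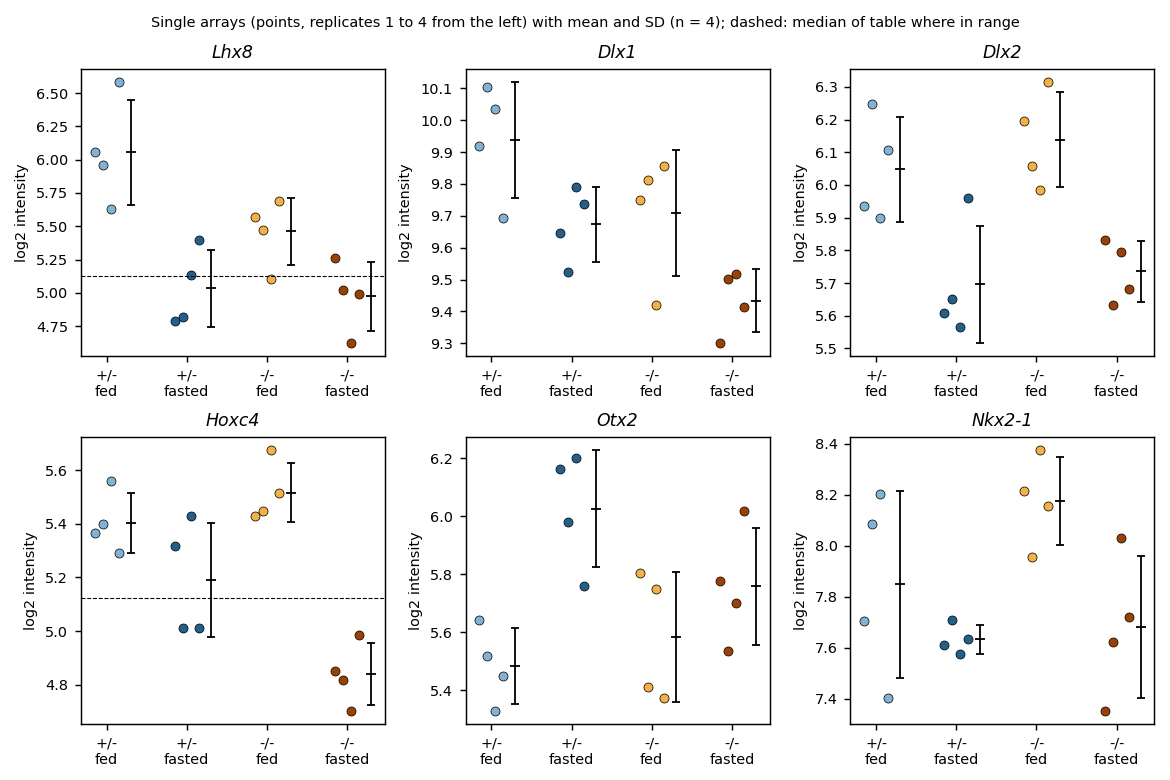
Log2 intensity of Lhx8, Dlx1, Dlx2, Hoxc4, Otx2 and Nkx2-1 on each of 16 arrays (points, replicates 1 to 4 from the left in each group) with group mean and SD (n = 4); each panel has its own axis, none starting at 0. Fasted arrays sit lower for Lhx8 and Dlx2, for Hoxc4 the 4 fasted AgRP-/- arrays lie between 4.70 and 4.99 below all others, and for Otx2 fasted AgRP+/- arrays lie above fed ones.

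Within AgRP+/- mice, fasting called 1 of 29 members, Lhx8, which decreased by 1.02 (SE 0.20, limma adjusted p = 0.0185), or 2.03-fold, against 0.754% of all tested probes called and 0.183% called lower. Fits that left out fed replicate 1, fed replicate 4, fasted replicate 1 or fasted replicate 2 of this genotype no longer called it (-1.02 to -0.85, adjusted p 0.0547 to 0.0846), nor did a fit of these groups alone (0.0789). Otx2, a factor of midbrain, choroid plexus and pineal gland, was on the other side. It read 5.64, 5.52, 5.33 and 5.45 in fed and 6.16, 5.98, 6.20 and 5.76 in fasted AgRP+/- mice, with no overlap, and its difference of 0.54 (SE 0.15) did not pass (adjusted p = 0.118). Fed and fasted ranges were apart for 3 members in this genotype, Lhx8, Otx2 and Meis3, against 5.7% of all tested probes. For Meis3 this rests on the brighter of its 2 kept probes, since the ranges of the other, 5.09 to 6.12 when fed and 4.84 to 6.61 when fasted, overlapped.

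Within AgRP-/- mice, fasting called 1 of 29 members, Hoxc4, which decreased by 0.68 (SE 0.14, limma adjusted p = 0.028), or 1.60-fold, against 0.388% of all tested probes called and 0.117% called lower. All 4 fasted readings lie below the table median, so the measured fold may understate the fall. Of the 10 arrays on which Hoxc4 exceeded that median, 4 were fed and 0 were fasted arrays of this genotype. The filter can thus also have favoured its fall and the separation of its groups. The call was lost without any single one of the 4 AgRP-/- fed arrays or of AgRP-/- fasted replicates 1, 2 and 3 (-0.71 to -0.63, adjusted p 0.0528 to 0.0910). Nkx2-1 read 8.22, 7.96, 8.37 and 8.15 in fed and 7.35, 7.62, 8.03 and 7.72 in fasted AgRP-/- mice. Fasted replicate 3 lay among the fed arrays, and the difference of -0.49 (SE 0.16) did not pass (adjusted p = 0.172). Fed and fasted ranges were apart for Hoxc4, Dlx2, Pou3f2 and Pou5f1, and for 8.23% of all tested probes. Pou3f2 and Pou5f1 passed the filter mainly through the fed arrays of this genotype, so their separation and its direction were favoured by the filter and are not read as a result. Lhx8 and Hoxc4 were each called in a single genotype, but the difference between genotypes did not pass for either (interaction 0.53 and -0.47, adjusted p = 0.999 for both).

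The remaining members did not pass in any fasting comparison. Averaged over genotypes, Otx2 stood at 0.36 (SE 0.10, adjusted p = 0.0582), Nkx2-1 at -0.35 (SE 0.11, 0.0740), Irx2 at 0.43 (SE 0.15, 0.107), Irx3 at 0.25 (SE 0.088, 0.118) and Lhx1 at 0.26 (SE 0.10, 0.159). Irx2 and Irx3, TALE-class factors of midbrain and thalamus, had positive differences in both genotypes, as did Otx2 and Lhx1. Weighting arrays by their quality brought Irx2, Irx3 and Otx2 past the threshold, all higher, for 7 calls in place of 4, while calls over all tested probes rose from 572 to 824. Single arrays also decided calls. Otx2 passed without AgRP+/- fasted replicate 4 (0.40, adjusted p = 0.0370), Irx2 without AgRP-/- fed replicate 3 (0.53, 0.0457), and Nkx2-1 when either replicate 4 of the fed AgRP+/- mice (-0.43, 0.0251) or replicate 3 of the fasted AgRP-/- mice (-0.41, 0.0453) was left out. The sign of the fasting change matched between genotypes for 24 of 29 members, 16 lower and 8 higher, in comparisons that share no arrays. The same share over all tested probes was not computed. Some of the lower ones, such as Lhx8, Hoxc4, Hoxc10 and Pou5f1, passed the filter mostly through fed arrays. The count is therefore not read as a result about the members. The probes left out by the filter were also fitted without it, and 0 of those 95 member probes were called in any of the 7 comparisons. Their lowest limma adjusted p was 0.0540. For averaged fasting, 9 of them had an unadjusted p under 0.05. The same share over all probes was not computed, so nothing is read from this count.

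**Figure D3:**
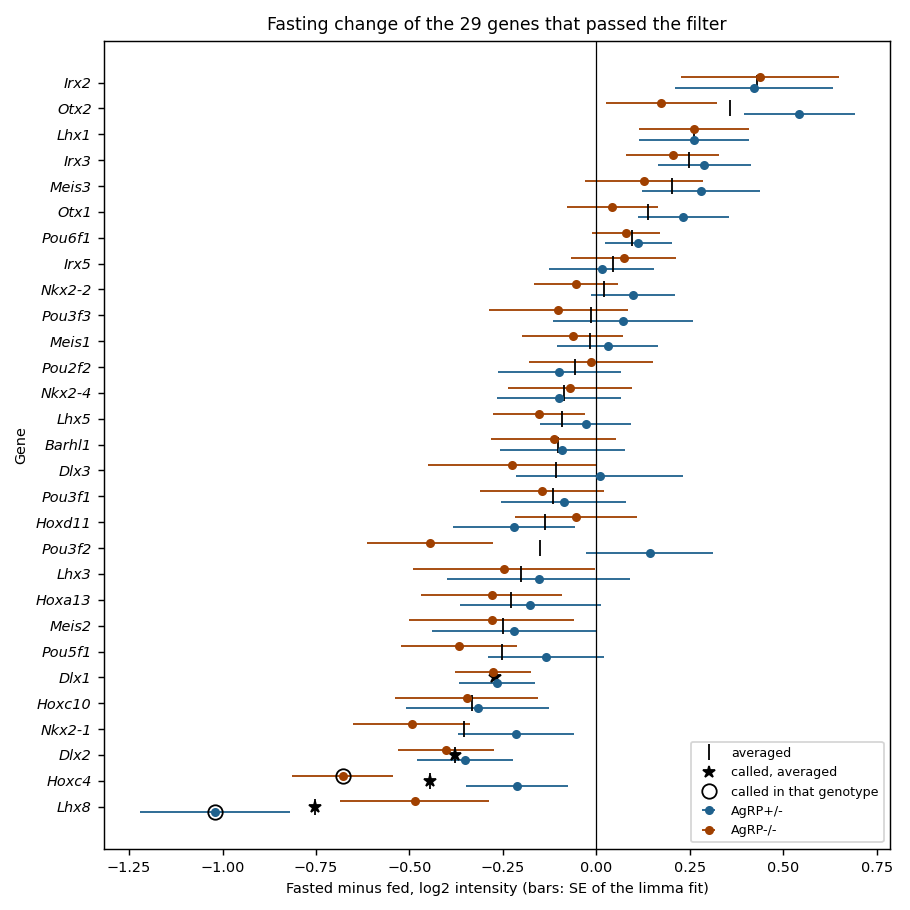
Fasted minus fed difference in log2 intensity of the 29 tested genes in AgRP+/- (blue) and AgRP-/- (orange) mice with the SE of the limma fit, ordered by the averaged change (black ticks); stars mark genes called in the average and circles those called in that genotype. Lhx8, Hoxc4, Dlx2 and Dlx1 carry the 4 stars, all below 0, and Irx2 has the highest averaged difference, 0.43.

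Listed markers of midbrain dopamine neurons moved with fasting on the same arrays, and the tissue that their RNA came from was not tested. Of 13 midbrain dopamine markers 11 passed the filter, and 5 of them were called higher in fasted mice averaged over genotypes, 0 lower (median of the list 0.58). Over all tested probes 4.19% were called in either direction. The dopamine transporter gene Slc6a3 rose by 1.48 (SE 0.38, limma adjusted p = 0.0330), Chrna6 by 1.05 (0.00937), Chrnb3 by 0.72 (0.00614), Th by 0.64 (0.0175) and Lmx1a, itself a homeobox gene of dopamine neurons, by 0.58 (0.0232). En1 and Pitx3 did not pass the filter. The mean of the 11 markers ran from 6.50 to 6.85 on fed and 6.64 to 7.50 on fasted AgRP+/- arrays, and from 6.28 to 7.03 on fed and 7.33 to 7.49 on fasted AgRP-/- arrays. The fasted AgRP-/- arrays were thus all above the fed ones of their genotype.

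With the mean of Slc6a3, Chrna6 and Th added to the model as a covariate, 0 of 29 members were called in any fasting comparison. Over all 13662 tested probes the calls fell as well, from 572 to 33 in averaged fasting, from 103 to 19 in AgRP+/- mice and from 53 to 1 in AgRP-/- mice, so the count of 0 says little about the members. The averaged change was then -0.68 for Lhx8 (adjusted p = 0.187), -0.51 for Hoxc4 (0.138), -0.30 for Dlx2 (0.371) and -0.14 for Dlx1 (0.597). All 4 kept their sign, and Hoxc4 was no smaller in size than without the covariate. The median SE over tested probes grew 1.50-fold, and the covariate itself differs between fed and fasted arrays. Of the members above 0, Otx2 moved from 0.36 to 0.15 and Irx2 from 0.43 to 0.066. With the mean of 5 thalamic markers as a covariate, the averaged changes were -0.82, -0.44, -0.38 and -0.25, and 3 of the 4 calls held, the exception being Dlx1 (adjusted p = 0.0631).

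Other marker lists moved less with fasting. Of 7 tested thalamic markers 0 were called, of 4 cortical and hippocampal markers 0 and of 4 striatal markers 0. Of 11 tested hypothalamic markers Npy was called higher and Oxt and Gal lower, and of 4 choroid plexus markers Clic6 was called lower. Of 9 pituitary markers 1, Cga, passed the filter, and 2 arrays carried both Gh and Prl above the table median, AgRP+/- fed replicate 2 (7.78 and 7.34) and AgRP-/- fed replicate 1 (6.14 and 5.17). Lhx3 read 5.13 and 4.71 on those arrays, while its highest reading, 6.12, was on AgRP+/- fed replicate 3, where Gh was 4.36. Without these 2 arrays, 2 of the 4 calls of averaged fasting were left, Lhx8 (-0.75, adjusted p = 0.0168) and Hoxc4 (-0.46, 0.0262), while Dlx2 stood at -0.33 (0.0715) and Dlx1 at -0.24 (0.0998).

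**Figure D4:**
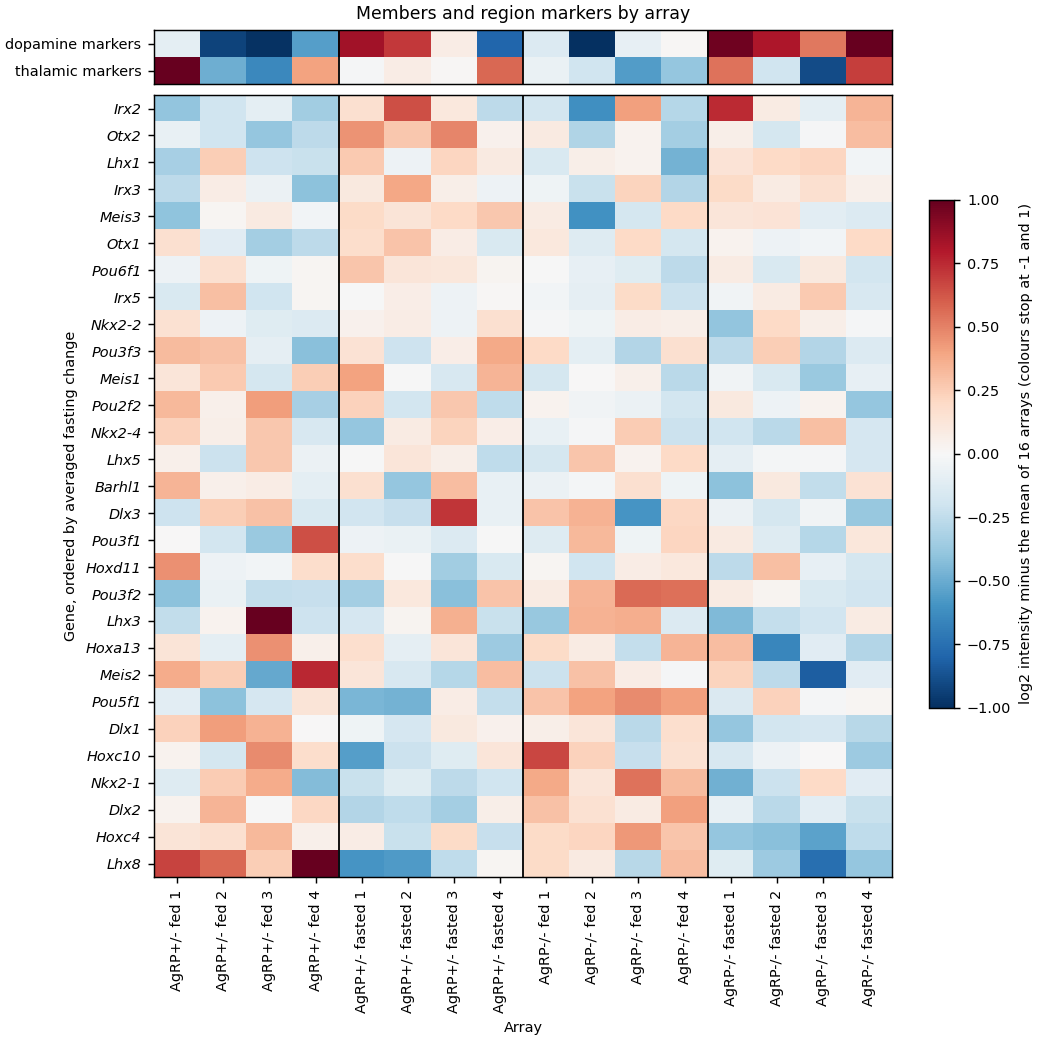
Log2 intensity minus the mean of all 16 arrays (red above, blue below, colours stopping at -1 and 1) for 29 genes ordered by averaged fasting change, with the means of the midbrain dopamine covariate (3 genes) and the thalamic covariate (5 genes) on top; columns are arrays and black lines part the groups. The bottom rows are mostly red on fed and blue on fasted arrays, and the dopamine strip is red on all 4 fasted AgRP-/- arrays and blue on AgRP+/- fasted replicate 4.

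Genes that work with these factors were read from 2 further lists. Of 30 listed cofactors of homeodomain proteins (Pbx, Ldb, Lmo, Tle, Eya and others) 19 were tested, and Pbx2, a TALE partner of Hox and Meis proteins, was called higher in averaged fasting (0.30, SE 0.073, limma adjusted p = 0.0274) and in AgRP+/- mice (0.44, SE 0.10, 0.0478), with 0 called lower. Of 44 other patterning factors 18 were tested, and 1, the dopamine neuron factor Lmx1a, was called higher in averaged fasting, with 0 lower. Zic1, a zinc finger factor of septum and dorsal neural tube, stood at -0.47 (adjusted p = 0.0740) and En2, an engrailed factor of the midbrain, at 0.67 (0.0709). The list medians were 0.024 and -0.0099, near that of all tested probes.

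The second question is whether loss of AgRP shifts these genes. No member was called between genotypes: 0 of 29 in fed mice, 0 in fasted mice, 0 averaged over feeding states and 0 for the interaction with fasting, against 0.00732%, 0.0146%, 0.0293% and 0% of all tested probes (limma). At an unadjusted p under 0.05 the members numbered 5, 3, 6 and 2, against 4.27%, 6.87%, 8.62% and 2.72% of all tested probes.

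Pou3f2 had the smallest p in fed mice. It read 4.60, 4.94, 4.77 and 4.78 in fed AgRP+/- mice and 5.09, 5.35, 5.57 and 5.56 in fed AgRP-/- mice, with no overlap. The difference of 0.62 (SE 0.17) had an adjusted p of 0.999, and in fasted mice the means were 4.92 ± 0.34 and 4.95 ± 0.13 (SD, n = 4). Pou5f1, a pluripotency gene, followed at 0.53 in fed mice (SE 0.15, adjusted p = 0.999) and 0.41 averaged over feeding states (SE 0.11, 0.319). Its readings of 4.53 to 5.48 straddle the table median. Its second probe averaged 4.42. Fed ranges of both genotypes were apart for these 2 members and 2.28% of all tested probes. Nothing is read from that count, since fed AgRP-/- arrays, where both are high, gave 3 of the 4 arrays on which Pou3f2 exceeded the median and 4 of the 6 for Pou5f1, so the filter favoured the difference.

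Dlx1 was lower in AgRP-/- than in AgRP+/- mice by a similar measured amount in both feeding states, -0.23 when fed and -0.24 when fasted (SE 0.10, adjusted p = 0.999 and 0.690), and the averaged difference of -0.23 (SE 0.072) did not pass (0.397). Its fasted readings, 9.522 to 9.789 in AgRP+/- and 9.301 to 9.517 in AgRP-/- mice, did not overlap, and neither did those of Hoxc4, which differed by -0.35 (SE 0.14, adjusted p = 0.688). These were 2 of 29 members, against 3.92% of all tested probes. Meis1 differed by -0.30 in fasted mice (SE 0.14, 0.694) and by -0.26 on average (SE 0.096, 0.483). Lhx8 differed by -0.59 in fed mice (SE 0.20, 0.999). The fed AgRP+/- and fasted AgRP+/- arrays that enter these differences are also those of the fasting comparison.

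Members were also followed from array to array within groups, after removing group means. Of 174 pairs of a member with the mean of a region marker list, 0 passed adjustment. Otx1 had the smallest p, with the midbrain dopamine list (r = 0.72, permutation p = 0.00227, adjusted p = 0.395; rho = 0.72, permutation p = 0.00609; r = 0.66 without the 2 arrays farthest from the list's median; n = 16). Irx2 with the same list had r = 0.63 (permutation p = 0.0426, adjusted p = 0.462; rho = 0.46, permutation p = 0.102), but r = 0.38 without the 2 farthest arrays. For Lhx8, Hoxc4, Dlx2 and Dlx1 the correlations with that list were -0.33, 0.19, -0.30 and -0.45 (permutation p = 0.238, 0.595, 0.411 and 0.122; adjusted p from 0.64 to 0.883). Lhx8 correlated with the cortical list at r = 0.65 (permutation p = 0.00949, adjusted p = 0.462; rho = 0.65, permutation p = 0.0155; r = 0.67 without 2 arrays).

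Of 406 pairs of members, 0 passed adjustment. The 4 pairs with the smallest p had an adjusted p of 0.171 each, and 3 of them joined members of 1 family. These were Meis1 with Meis2 (r = 0.81, rho = 0.76), Otx1 with Otx2 (r = 0.79, rho = 0.77) and Irx2 with Irx3 (r = 0.72, rho = 0.72), with permutation p of 0.00081, 0.00186 and 0.00253 for r, and of 0.00285, 0.00266 and 0.00385 for rho. The fourth joined Lhx8 and Nkx2-1, which ran in opposite directions (r = -0.79, rho = -0.69, permutation p = 0.00141 and 0.00798). Without the 2 arrays farthest from the median of the first gene, r was 0.74, 0.75, 0.65 and -0.64. The share of pairs within 1 family among all 406 was not computed, so the 3 family pairs are not read as a pattern. The neighbouring genes Dlx1 and Dlx2, both lower after fasting, had r = 0.24 within groups (permutation p = 0.432, adjusted p = 0.917; rho = 0.16, permutation p = 0.601; r = 0.20 without 2 arrays).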

How the data were processed

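Total RNA from 16 hypothalamic samples was converted to biotinylated cRNA, per the labels' protocols. As deposited, the table gives 25697 probes as log2 intensities on 16 arrays. Per the submitters' processing notes the authors used limma, with version and role not given in the sources used here, nor were background correction and normalization. Sorted columns differed by at most 0.0345, so a shift common to most genes cannot be seen. Pairs of arrays correlated at 0.989 to 0.995 over all probes. Detection p-values and slides were not used here, and precision is limited by the number of arrays.

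The platform annotation, which can be old, named 23978 probes with 1 symbol each, left 1719 unnamed and gave several symbols to 0. By gene identifier 23962 matched RefSeq (GRCm38.p6), and 0 symbols changed. RefSeq also gave the promoter windows.

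Deposited values were not transformed. Kept probes were above 5.125, the median of all values, on at least 4 of 16 arrays (13662 probes). limma 3.58.1 in R 4.3.3 was fitted with 1 coefficient per group, 12 residual degrees of freedom and an intensity trend. The 7 contrasts were adjusted by Benjamini-Hochberg over kept probes, called at 0.05. On simulated data the model recovered 40.3% of log2 shifts of 0.5 for fasting in AgRP+/- mice, 56.7% in AgRP-/- mice and 76.1% in averaged fasting. Shifts of 1 were recovered at 91.0%, 94.0% and 100%. A change of 0.5 or less can thus be missed, and the genotype comparisons were not simulated. Correlations used 100000 permutations within groups, two-sided.

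Same-numbered arrays correlated from -0.187 to 0.299 in their deviations from group means (7 of 24 over 0.1), so numbers were not treated as pairs.

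Named were every called member, the 4 with the smallest p per contrast, the 5 brightest and a set of region anchors; other members were given by level, and, after their values were seen, Meis3, Zic1, En2, the called list genes, the pairs of members and the arrays with Gh and Prl. Members and lists were chosen with earlier results of these data known. The covariates, the fit without the arrays with Gh and Prl and the pairs of members were added after seeing the data.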

Additional observations from a re-analysis of the deposited data

Results flagged for a closer look

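In 108 groups of 4 arrays (27 named members with a probe), 2 held an array far from the other 3; chance gives about 1 in 20. Lhx9, a factor of thalamic and habenular neurons, read 4.49 on AgRP-/- fasted replicate 3, against 4.93 to 5.01 on the other 3 arrays. Pax6, a factor of the dorsal telencephalon, read 4.74 on AgRP+/- fed replicate 2, against 4.42 to 4.46 on the others. Neither probe passed the filter, and neither was called in the fits without a filter. AgRP+/- fed replicate 2 is also an array with Gh and Prl above the table median.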

How the results depend on the processing

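The averaged fasting count of 4 members became 2 without a filter, 1 with a filter at the 75th percentile (which 7 members passed, Dlx1 alone of the called), 7 with array weights, 2 without the 2 arrays with Gh and Prl, 0 with the dopamine covariate and 2 to 5 with 1 array left out. Calls over all tested probes moved too, from 572 to 413 without a filter, 426 with the 75th-percentile filter, 824 with weights, 440 without the arrays with Gh and Prl, 33 with the dopamine covariate and 301 to 560 with 1 array left out. The AgRP+/- fasting count of 1 became 0 with the 75th-percentile filter, with the groups compared alone, without the arrays with Gh and Prl and with the dopamine covariate, and was 0 to 1 with 1 array left out. The AgRP-/- fasting count of 1 became 0 with the 75th-percentile filter, without the arrays with Gh and Prl and with the dopamine or the thalamic covariate, and was 0 to 1 with 1 array left out. The cause was not tested, except that the 75th-percentile filter dropped Lhx8, Hoxc4 and Dlx2 from the test and the standard errors were wider with the dopamine covariate. The 4 genotype and interaction counts were 0 under every alternative run. Replicate numbers as a block left the counts at 1 and 1 within genotypes and 3 for averaged fasting, with Dlx1 at an adjusted p of 0.0512, and 5 of 16 arrays correlated best with their own number. Of 937 refits of 35 changes of members, 0 reversed, 887 stayed on their side of the threshold, 42 lost a call and 8 gained one (of Otx2, Nkx2-1, Irx2 and Irx3, in averaged fasting, 1 of them Otx2 with no intensity trend). Most of the 35 changes were not called in the main fit and could not lose a call. Losses were 18 of 27 refits for Dlx1 and 5 of 26 for Dlx2 in averaged fasting. They were 10 of 27 for Hoxc4 in AgRP-/- mice and 7 of 27 for Lhx8 in AgRP+/- mice. Averaged Lhx8 and Hoxc4 each lost 1 of 26. Median centring, quantile normalization once more, no trend and 1 probe per gene before adjustment kept every count within 1.5 times. Values near the median of the table limit what can be read of Lhx8, Hoxc4 and Pou3f2.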
